A study of Danio rerio with 6 samples.

Results

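The CaBP genes encode small EF-hand proteins related to calmodulin, the ubiquitous calcium sensor of the cell. The 7 zebrafish genes studied here are cabp1a, cabp1b, cabp2a, cabp2b, cabp4, cabp5a and cabp5b, found by their symbols among the 31701 genes with values in the deposited table. They were measured by RNA-seq in hair cells and in non-sensory surrounding cells (nsSCs) of the adult inner ear. Each of the 3 hair cell samples held 1000 GFP-positive cells with a visible hair bundle, and each of the 3 nsSC samples held 1000 cells without GFP or bundle. The cells were picked singly with a suction pipette from the 3 sensory organs of the ear, the lagena, the utricle and the saccule, and each sample pooled cells of several fish. All came from female Tg(pou4f3:GAP-GFP)s273t zebrafish, 11 to 13 months old, in which the pou4f3 promoter drives membrane GFP in hair cells. No treatment is named, and the groups differ by cell type. The nsSC samples were defined by what the cells lacked and hold a mixture of cell types.

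In mammals CaBPs compete with calmodulin for binding sites on voltage-gated calcium channels of the Cav1 family, which calmodulin closes as calcium enters and which CaBPs keep open for longer. Ribbon synapses of hair cells rely on Cav1 channels that close little, and CABP2 is a human deafness gene. CABP4 acts at photoreceptor synapses and is mutated in human retinal disease, while mouse CaBP5 is best known from retinal bipolar cells and CaBP1 from neurons. Zebrafish have a pair of copies, a and b, of cabp1, cabp2 and cabp5.

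Values are RPKM, read numbers scaled to transcript length and to all mapped reads of a sample, so that levels of different genes can be compared per length. The samples were checked against their labels with cell type markers. Of 9 hair cell markers, 9 were higher in hair cells, where they summed to between 3366 and 3545 RPKM, against 9.52 to 14.7 RPKM in nsSCs. pou4f3 is among them and was used to choose the cells. The paper already reports chrna9, lhfpl5a, myo6b, otofb, slc17a8 and tmc2a as higher in hair cells in these data. Their direction here is thus not independent evidence. Markers of connective tissue, leukocytes, endothelium and red blood cells were higher in nsSCs in every case tested. The other lists were less uniform. Higher in nsSCs were 8 of 10 epithelial, 6 of 7 glial, 6 of 14 neuronal and 3 of 5 pigment cell markers. In hair cells 1 epithelial, 2 neuronal and 1 pigment cell marker were higher. Over all tested genes, 35.4% were called higher in nsSCs and 31.0% higher in hair cells. The replicates correlated across genes at 0.9982 to 0.9988 in hair cells and at 0.9905 to 0.9994 in nsSCs. These are Pearson correlations of RPKM without a logarithm, in which the most abundant genes weigh most. The study states the depth only approximately and the table holds no counts, so that no counting error is given. Since these are bulk samples, fewer cells of a type and less RNA per cell cannot be told apart.

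One copy of the cabp2 pair dominated the family. cabp2b (ENSDARG00000052277) is by its name, like cabp2a, a counterpart of the human deafness gene. It reached 5798, 5696 and 5893 RPKM in replicates 1, 2 and 3 of the hair cells. In replicates 1, 2 and 3 of the nsSCs it had 27.99, 30.04 and 29.00 RPKM. The samples of a cell type lay close together, with a coefficient of variation of 1.70% in hair cells and 3.53% in nsSCs, and the groups did not overlap. Hair cells averaged 5796 ± 98.5 RPKM and nsSCs 29.0 ± 1.03 RPKM (SD, n = 3 each), a ratio of 199.8. On log2(RPKM + 0.1), the scale of all tests here, the difference was 7.64 (standard error 0.04, limma adjusted p = 2.4e-10). A total of 200 of the 22374 tested genes had a larger one. Its level was the 14th highest of all genes in each hair cell sample, and between the 2289th and the 2381st in the nsSC samples. The study itself picked cabp2b out as a hair cell gene, so that its direction here is not independent evidence. The paper also lists it among genes with in situ hybridization in earlier studies. It was, besides, among the genes measured by qPCR in separately prepared samples of other zebrafish. In that qPCR the paper reports its hair cell genes as higher in hair cells than in nsSCs.

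The other copy of the pair, cabp2a (ENSDARG00000052016), was close to absent from the table. It was listed at 0 in every hair cell sample and, among the nsSCs, at 0.04 RPKM in replicate 1 and at 0 in replicates 2 and 3, so that the groups overlapped. It did not reach the mean of 0.1 RPKM in either cell type that a gene needed to be tested.

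cabp5b was the second most abundant CaBP gene of hair cells. cabp5b (ENSDARG00000028485) had 92.26, 87.60 and 89.51 RPKM in replicates 1, 2 and 3 of the hair cells and was listed at 0 in every nsSC sample. The hair cell samples varied by 2.61% (coefficient of variation), and the gene was called higher in hair cells (limma adjusted p = 2.4e-09). No single fold change is given here, because it would depend on the 0.1 RPKM added before the logarithm. Its paralog cabp5a (ENSDARG00000002576) had the opposite pattern at a much lower level. Hair cell replicates 1 and 3 were listed at 0 and replicate 2 at 0.01 RPKM, against 1.28, 1.75 and 2.02 RPKM in replicates 1, 2 and 3 of the nsSCs. The groups did not overlap and the gene was called higher in nsSCs (limma adjusted p = 1.2e-06).

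The cabp1 pair was divided in the same direction. cabp1b (ENSDARG00000033411) had 18.91, 17.84 and 18.73 RPKM in replicates 1, 2 and 3 of the hair cells, against 0.22, 0.28 and 0.19 RPKM in replicates 1, 2 and 3 of the nsSCs. Hair cells averaged 18.5 ± 0.573 RPKM and nsSCs 0.230 ± 0.0458 RPKM (SD, n = 3 each), a ratio of 80.4. The difference was 5.82 on the log2 scale (standard error 0.14, limma adjusted p = 4.1e-08). Its size depended on the 0.1 RPKM added before the logarithm, since the nsSC values were low. Its paralog cabp1a (ENSDARG00000019990), on the other hand, was listed at 0 in every hair cell sample. The nsSC replicates 1, 2 and 3 had 1.47, 1.15 and 1.68 RPKM, and the gene was called higher in nsSCs (limma adjusted p = 8.8e-07).

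cabp4 (ENSDARG00000008866), the single entry of that symbol in the table, was listed at 0 in all 6 samples. Zeros in a table without counts can be failed estimates. None of 82 entries for ribosomal proteins, which every cell uses, was listed at 0 in any sample. Genes used by every cell are seldom at 0, so this cannot show whether the zeros of CaBP genes are failed estimates.

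**Figure D1:**
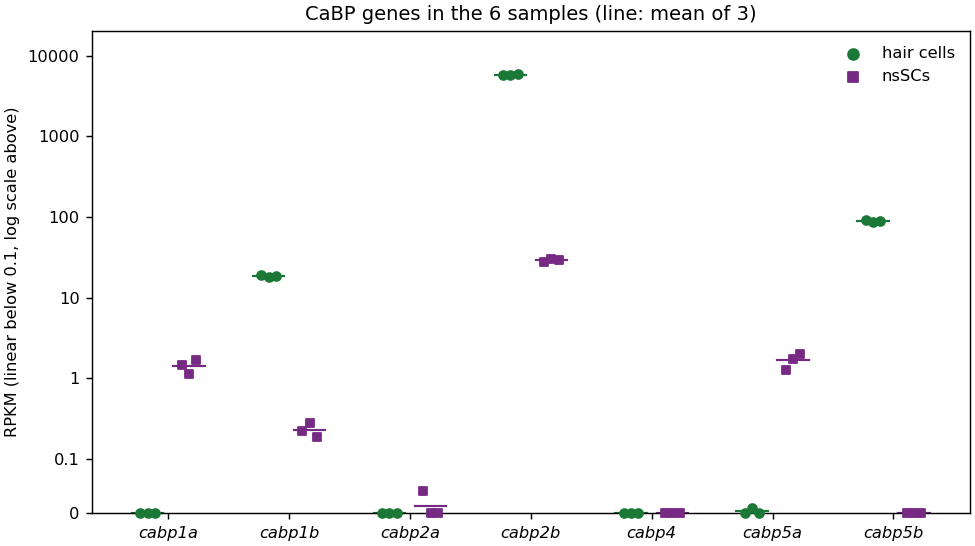
RPKM of the 7 CaBP genes in the 3 hair cell samples (circles) and the 3 nsSC samples (squares), with a line at the mean of each cell type. The vertical axis is linear below 0.1 RPKM and logarithmic above. cabp2b, cabp5b and cabp1b lie higher in hair cells, cabp1a and cabp5a higher in nsSCs, and cabp2a and cabp4 lie at or near 0.

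In total, 5 of the 7 genes passed the filter on low values. All 5 were called, which took an adjusted p below 0.05 and a difference of 2-fold or more, with 3 higher in hair cells and 2 higher in nsSCs. Calls were common in this comparison. Over all 22374 tested genes, 66.4% were called, made up of 31.0% higher in hair cells and 35.4% higher in nsSCs. In 85.1% of the tested genes the samples of the cell types did not overlap. A call on a CaBP gene is therefore not unusual in itself. Moreover, cabp1a, cabp5a and cabp5b passed the filter only through the cell type in which they were higher.

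The order of the levels differed between the cell types. In hair cells it was cabp2b, cabp5b and cabp1b, with no overlap between neighbours, while cabp5a, cabp1a, cabp2a and cabp4 could not be ordered at or near 0. In nsSCs cabp2b was again first, though the part of hair cell RNA in its nsSC values was not tested. cabp5a and cabp1a followed with ranges that overlapped, since cabp5a was below cabp1a in nsSC replicate 1 and above it in replicates 2 and 3. cabp1b lay below both, and cabp2a, cabp4 and cabp5b were at or near 0.

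cabp2b also made up most of the family's transcripts in both cell types. Its share of the summed CaBP RPKM was 98.2 ± 0.0413% (SD, n = 3) in hair cells and 89.6 ± 1.26% (SD, n = 3) in nsSCs. The nsSC mean of cabp2b was 0.501% of its hair cell mean. The part of hair cell RNA in it, and so in all nsSC shares, was not tested. The rest of the sum was held largely by different genes. In hair cells it was cabp5b with 1.52 ± 0.0361% and cabp1b with 0.313 ± 0.00632%. In nsSCs it was cabp5a with 5.18 ± 1.01%, cabp1a with 4.44 ± 0.864% and cabp1b with 0.710 ± 0.133%. Without cabp2b, the family summed to 108 ± 2.86 RPKM in hair cells, against 3.36 ± 0.467 RPKM in nsSCs (SD, n = 3 each).

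The division of each pair was followed within samples, where the ratio of both copies does not depend on how the sample was scaled. cabp1a held 0% of the summed RPKM of the cabp1 pair in all 3 hair cell samples. In nsSC replicates 1, 2 and 3 it held 87.0%, 80.4% and 89.8%, so that the more abundant copy was the b copy in each hair cell sample and the a copy in each nsSC sample. The cabp5 pair changed over more completely. cabp5a held 0%, 0.0114% and 0% of it in hair cell replicates 1, 2 and 3 and 100% in each nsSC sample. In the cabp2 pair, however, the b copy prevailed in both cell types. cabp2a held 0% of it in the hair cell samples and 0.143%, 0% and 0% in nsSC replicates 1, 2 and 3. The part of hair cell RNA in the nsSC values of cabp2b was not tested.

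In the exact permutation test (two-sided) of the log2 ratio of the copies, each of the 3 pairs gave p = 0.1, and 0.1 after adjustment over the 3 pairs. This is the smallest p that 3 samples against 3 can give, so that no pair could pass. For the cabp2 pair the log2 ratio follows the level of cabp2b alone, since cabp2a was at or near 0 throughout. How reads shared by similar copies were assigned, and whether strand was used, is not given in the sources used here. The low copies are uncertain to that extent, as are genes that overlap another, which 6 of the 7 do in the current RefSeq annotation.

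**Figure D2:**
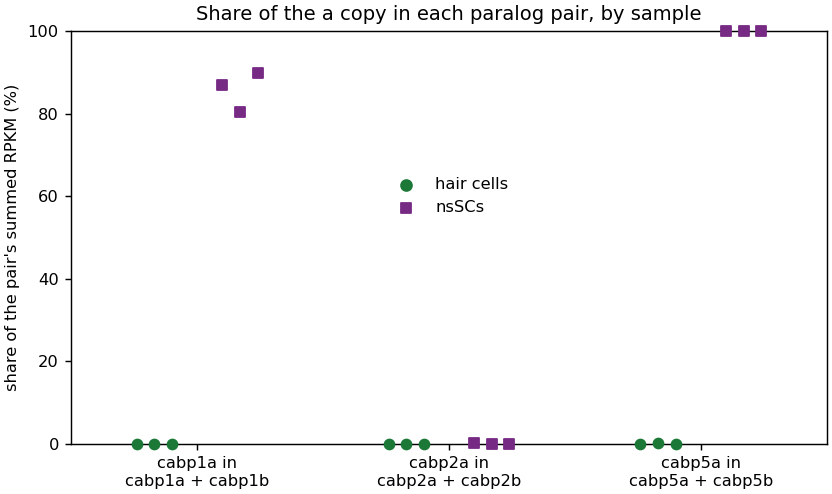
Share of the a copy in the summed RPKM (%) of the cabp1, cabp2 and cabp5 pairs, for the 3 hair cell samples (circles) and the 3 nsSC samples (squares). The a copy lies at or near 0% in hair cells in all pairs, and in nsSCs it reaches 80.4% to 89.8% for cabp1a and 100% for cabp5a but stays at or below 0.143% for cabp2a.

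The hair cell markers also had low values in nsSCs, and the CaBP genes of hair cells were compared with them. The nsSC mean of the 9 hair cell markers was between 0.00183% (chrna9, an acetylcholine receptor subunit) and 5.76% (atoh1a, a transcription factor of hair cell fate) of the hair cell mean, with a median of 0.388%. For cabp2b it was 0.501%, above 7 of the markers and below 2. The markers next to it were myo6b, a myosin of the hair bundle, at 0.521% and otofb, an otoferlin gene of synaptic exocytosis, at 0.481%. For cabp1b it was 1.24%, above 8 of the 9 markers, and for cabp5b it was 0%, below all 9. The percentages of cabp2b and cabp1b both lay within the range of the hair cell markers, which is wide. For cabp1b this rested on atoh1a alone, since the next highest marker, myo6b, was at 0.521%. The part of hair cell RNA in these nsSC values was not tested.

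**Figure D3:**
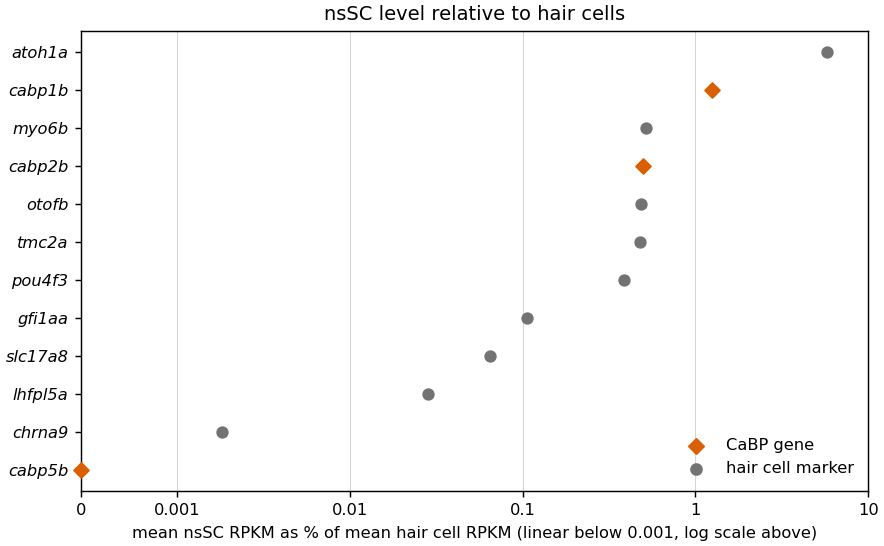
Mean nsSC RPKM as a percentage of mean hair cell RPKM (horizontal axis, linear below 0.001% and logarithmic above) for the 3 CaBP genes higher in hair cells (diamonds) and the 9 hair cell markers (circles). cabp2b lies at 0.501% between otofb and myo6b, cabp1b at 1.24% and cabp5b at 0%.

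Beside cabp1a and cabp5a, the markers of several other cell types were higher in nsSCs as well. The 7 glial markers, genes of myelin and its cells, summed to 187 to 197 RPKM in hair cells, against 4994 to 5181 RPKM in nsSCs, with 6 of 7 called higher in nsSCs and cldn19 and egr2b at 0 in hair cells. The 8 leukocyte markers summed to 10.5 to 12.4 RPKM in hair cells, against 506 to 552 RPKM in nsSCs, with coro1a, csf1ra and mpeg1.1 at 0 in hair cells. The 10 epithelial markers summed to 949 to 993 RPKM in hair cells, against 2511 to 2705 RPKM in nsSCs, with 8 called higher in nsSCs, 1 higher in hair cells and krt17 at 0 in hair cells. The sums of these 3 lists did not overlap between the cell types. The calls stand beside 35.4% of all tested genes called higher in nsSCs and 31.0% called higher in hair cells.

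The 14 neuronal markers, of interest because CaBP1 is known from neurons, summed to 97.6 to 101 RPKM in hair cells, against 103 to 117 RPKM in nsSCs, and none was at 0 in all 3 hair cell samples. Of these, 6 were called higher in nsSCs and 2 higher in hair cells, isl1 and snap25b, beside 35.4% and 31.0% of all tested genes in these directions. The sums rested on single genes, examined after the values were seen. Without isl1, the most abundant in hair cells, they were 39.95 to 42.5 RPKM in hair cells, against 103 to 117 RPKM in nsSCs. Without ntrk2a, the most abundant in nsSCs, they were 95.4 to 98.95 RPKM in hair cells, against 42.6 to 52.3 RPKM in nsSCs. The 7 markers of connective tissue summed to 15.3 to 18.4 RPKM in hair cells, against 546 to 572 RPKM in nsSCs, with lum and postnb at 0 in hair cells. The 5 endothelial markers summed to 0.56 to 0.93 RPKM in hair cells, against 27.3 to 28.2 RPKM in nsSCs, with 4 of them at 0 in hair cells. Most of the nsSC sum was fli1a, at a mean of 18.5 RPKM. The 5 red blood cell entries summed to 908 to 987 RPKM in hair cells, against 20094 to 23842 RPKM in nsSCs. The 5 pigment cell markers summed to 0.34 to 0.50 RPKM in hair cells, against 2.14 to 2.36 RPKM in nsSCs. Among the pigment cell markers, 3 were called higher in nsSCs and 1, dct, higher in hair cells, beside the same shares of all tested genes. Which cells of the mixture carried cabp1a or cabp5a, and the part of these markers in either result, was not tested.

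Calmodulin, the competitor of CaBPs at calcium channels, was the first of the related families examined. The table holds 6 entries with the listed symbols, and all 6 were tested. In hair cells 5 of them were higher and 1 was not called, beside 31.0% of all tested genes called higher there. The median log2 difference was 2.33, against 0.00 over all tested genes. The calm3a entry of the higher level (ENSDARG00000074057) was at 3021 ± 76.7 RPKM in hair cells, against 571 ± 25.5 RPKM in nsSCs, and calm2b was at 2312 ± 28.8 RPKM in hair cells, against 487 ± 9.57 RPKM in nsSCs (SD, n = 3 each). The calm3a entry of the lower level (ENSDARG00000100825) was not called, at 44.8 ± 0.301 RPKM in hair cells, against 38.7 ± 1.34 RPKM in nsSCs. Calmodulin genes encode nearly the same protein, and reads shared between them could have been split by the counting.

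Set beside calmodulin, cabp2b changed its place. The lowest hair cell sample of cabp2b, 5696 RPKM, was above the highest value of any calmodulin entry in hair cells, 3103 RPKM. In nsSCs its highest sample, 30.04 RPKM, was below the lowest calmodulin value, 33.2 RPKM. The summed CaBP RPKM was 5904 ± 99.9 in hair cells and 32.4 ± 1.2 in nsSCs, and the summed calmodulin RPKM 9638 ± 57.0 in hair cells and 1300 ± 11.7 in nsSCs (SD, n = 3 each). As a percentage of calmodulin, the CaBP sum was 61.4%, 60.5% and 61.9% in hair cell replicates 1, 2 and 3 and 2.37%, 2.58% and 2.52% in nsSC replicates 1, 2 and 3. The ratio was thus higher in all 3 hair cell samples than in all 3 nsSC samples. It compares transcripts, not protein.

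**Figure D4:**
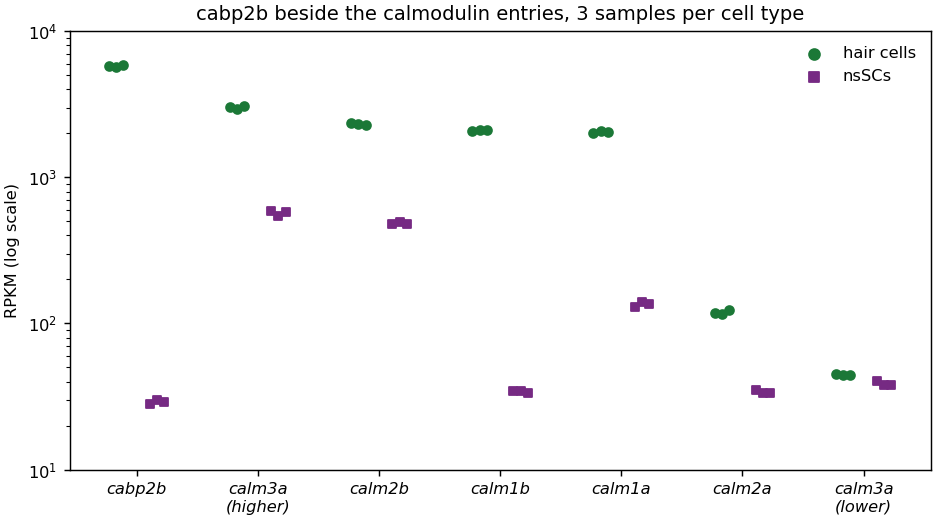
RPKM (log scale) of cabp2b and the 6 calmodulin entries in the 3 hair cell samples (circles) and the 3 nsSC samples (squares). In hair cells cabp2b lies above every calmodulin entry, and in nsSCs, at 27.99 to 30.04 RPKM, below every one.

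Channels and receptors that CaBPs are known to bind in mammals were low in both cell types. Of the 15 listed genes for Cav1 and Cav2.1 calcium channels, inositol trisphosphate receptors and TRPC5 channels, 10 were tested. In hair cells 4 of them were higher and in nsSCs 6 were higher, beside 31.0% and 35.4% of all tested genes in these directions, with a median log2 difference of -1.69, against 0.00 over all tested genes. With a pseudocount of 1 RPKM, and likewise with a filter of 1 RPKM, 2 instead of 6 were called higher in nsSCs. Higher in hair cells were 3 instead of 4. Over all genes tested in these settings, 20.2% and 29.9% were called higher in nsSCs. The filter also took low genes of the list out of the test. cacna1da, which encodes the Cav1.3 channel of the hair cell synapse, had 2.93, 2.69 and 3.31 RPKM in replicates 1, 2 and 3 of the hair cells, against 0.23, 0.41 and 0.35 RPKM in replicates 1, 2 and 3 of the nsSCs. It was called higher in hair cells, at a log2 difference of 2.86 (standard error 0.20, limma adjusted p = 8.3e-06).

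A receptor for inositol trisphosphate, itpr1b, was also called higher in hair cells, at 2.81 ± 0.687 RPKM in hair cells, against 0.580 ± 0.193 RPKM in nsSCs (SD, n = 3 each). Its relative itpr3 was listed at 0 in every hair cell sample and had 1.44 ± 0.384 RPKM in nsSCs. cacna1aa, a gene for the neuronal Cav2.1 channel, was at 0.01 ± 0.01 RPKM in hair cells, against 1.93 ± 0.0757 RPKM in nsSCs. Both were called higher in nsSCs.

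Among calneurons and neuronal calcium sensors, other relatives of CaBPs with calcium-sensing EF-hands, calls were found in both directions. Of 29 listed genes 27 were found and 20 tested, with 6 higher in hair cells, 9 higher in nsSCs and 5 not called, beside 31.0% and 35.4% of all tested genes called in these directions. The median log2 difference was -0.79. kcnip3a, a gene of the potassium channel-interacting proteins, was at 233 ± 3.10 RPKM in hair cells, against 5.20 ± 0.495 RPKM in nsSCs, and the hippocalcin gene hpca at 73.6 ± 2.51 RPKM in hair cells, against 14.7 ± 0.881 RPKM in nsSCs (SD, n = 3 each). The calneuron gene caln2 had the opposite pattern, at 0.203 ± 0.127 RPKM in hair cells, against 31.0 ± 1.28 RPKM in nsSCs, as had the recoverin gene rcvrn3, at 0.367 ± 0.1 RPKM in hair cells, against 10.04 ± 0.595 RPKM in nsSCs. The neurocalcin gene ncalda was not called, at 7.13 ± 0.763 RPKM in hair cells, against 13.5 ± 1.38 RPKM in nsSCs. With a pseudocount or a filter of 1 RPKM, 5 instead of 9 were called higher in nsSCs and 5 instead of 6 higher in hair cells. Over all genes tested in these settings, 20.2% and 29.9% were called higher in nsSCs. The filter also took low genes of the list out of the test.

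For the 3 CaBP genes of at least 10 RPKM in a cell type, the genes of most similar levels were found by Euclidean distance on log2(RPKM + 0.1) over the 6 samples, leaving out entries named after clones. Nearest to cabp2b were s100t, an S100 calcium-binding protein gene, at a distance of 1.52, the parvalbumin gene pvalb8 at 2.07 and the calmodulin gene calm1b at 2.57. Nearest to cabp5b were the transcription factor genes sox1a and sox21a at 0.30 and 0.32 and rprma, a reprimo gene, at 0.55. sox1a was at 93.3 ± 3.21 RPKM in hair cells, against 0.00667 ± 0.0115 RPKM in nsSCs (SD, n = 3 each). Nearest to cabp1b were the adhesion molecule gene dscaml1 at 0.47, dpy19l3 at 0.57 and slitrk4, a gene for a neuronal membrane protein, at 0.57. The distance reflects the level in each cell type, and with 6 samples in 2 groups it does not single out genes that vary together.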

How the data were processed

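Hair cells and nsSCs were compared as 3 samples each. The authors made libraries with an amplification kit for low input, mapped the reads to GRCz10 and deposited RPKM values, rounded to 2 decimals. Their methods name CLC Genomics Workbench and HTSeq count. The table has 35919 entries, of which 31701 carry values. CaBP genes were matched by symbol. Their members, the gene lists and the tests were chosen with earlier results of these data known.

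On log2(RPKM + 0.1), genes whose mean reached 0.1 RPKM in either cell type were fitted with limma 3.58.1 (R 4.3.3 with statmod 1.5.0), using trended, robust moderation. Calls required an adjusted p (Benjamini-Hochberg) below 0.05 and a difference of 2-fold or more. This scale understates the change of low genes. Pair ratios were tested by exact permutation with scipy 1.17.1 (Python 3.11.15, numpy 2.4.6, pandas 2.3.3, matplotlib 3.10.9). The p-values measure the spread between samples pooled from several fish. The study ran several samples in each sequencing lane, but which ones is not given. A lane could therefore coincide with a cell type, and its part was not tested.

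Named genes are the 7 members, the 2 most abundant called genes in each direction and the most abundant uncalled gene of each list, and the 3 nearest genes of members of at least 10 RPKM. Alternatives were other pseudocounts, filters, fold minimums and scalings, limma with neither trend nor robust moderation, a replicate block and leaving out each sample. Gene order came from RefSeq's GRCz12tu annotation, and no coordinates or sequences are given.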

Additional observations from a re-analysis of the deposited data

How the results depend on the processing

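All 5 tested CaBP genes kept their direction and their call under each alternative, 70 values in all. The log2 difference of cabp2b ranged from 7.16 to 8.13 (highest adjusted p = 3.8e-07) and that of cabp1b from 3.99 to 6.29 (highest adjusted p = 3.9e-06). The highest adjusted p was 3.4e-05 for cabp1a, 4.9e-05 for cabp5a and 4.7e-07 for cabp5b. These genes were at or near 0 in the cell type where they were lower, so that no alternative could turn their direction. Their log2 differences varied with the pseudocount, from -7.16 to -1.28 for cabp1a, -7.05 to -1.41 for cabp5a and 6.50 to 13.1 for cabp5b. Both ends of the range of cabp1b also came from the pseudocount, 3.99 with 1 RPKM and 6.29 with 0.01 RPKM. Median-ratio scaling moved the median of all genes by -0.48 and scaling to the same total RPKM by 0.49, and the 5 calls held under both. With a pseudocount of 1 RPKM, 2 instead of 6 target channels and receptors and 5 instead of 9 calneurons and calcium sensors were called higher in nsSCs, and the same numbers, 2 and 5, were called with a filter of 1 RPKM. Under either setting, 3 instead of 4 target channels and receptors and 5 instead of 6 calneurons and calcium sensors were called higher in hair cells. Over all 22374 tested genes, 7917 (35.4%) were called higher in nsSCs and 6929 (31.0%) in hair cells. With that pseudocount these were 4516 (20.2%) and 5278 (23.6%). The filter left 16860 genes to test, with 5046 (29.9%) and 6017 (35.7%) called. It also took low genes of both lists out of the test, so that fewer calls there need not be lost calls. A fold minimum of 4 left 4008 of 6929 genes called higher in hair cells and 5420 of 7917 higher in nsSCs. These were 17.9% and 24.2% of all tested genes. All 5 CaBP calls were left as well.

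The numbers of the samples were not taken to pair them, since the deviations of same-numbered samples correlated at -0.05 to 0.02, and 1 of 3 hair cell samples correlated best with its own number. With a replicate block the count of CaBP calls was 3 higher in hair cells and 2 higher in nsSCs, as without it. In the sign-flip test over the 3 pairs of samples, the smallest p possible was 0.25. The paper describes collecting both cell types from each zebrafish, so that the groups are not separate sets of animals. Whether samples of the same number share fish is not given. Without counts in the table, no counting error is given for low values.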

Other observations

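Entries outside the 7 genes that carry a CaBP name were near 0. An entry for CABP7 (ENSDARG00000078272), a calneuron gene, had 0, 0.15 and 0.12 RPKM in replicates 1, 2 and 3 of the hair cells and was listed at 0 in every nsSC sample. cabp7b had 0, 0.05 and 0 RPKM in replicates 1, 2 and 3 of the hair cells, against 0.30, 0.09 and 0.18 RPKM in replicates 1, 2 and 3 of the nsSCs, and was called higher in nsSCs (limma adjusted p = 0.0096). The reference list gives the name CABP4 to a further entry, si:cabz01076231.1 (ENSDARG00000105631), with 0 in every hair cell sample and 0.60, 0 and 0.28 RPKM in replicates 1, 2 and 3 of the nsSCs. It was not called (limma adjusted p = 0.060).

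The genes that flank the CaBP genes in the RefSeq annotation (GRCz12tu) were examined after the values of the family were seen. The nearest protein-coding gene of the table on each side of the 7 genes gave 14 neighbours, of which 12 were tested. Of these, 5 were called higher in hair cells, 4 higher in nsSCs and 3 were not called, against 31.0% and 35.4% of all tested genes in either direction. Beside cabp2b, the crystallin gene crybb1l1 was at 2.13 ± 0.291 RPKM in hair cells, against 0.13 ± 0.01 RPKM in nsSCs (SD, n = 3 each). On its other side mgst2, a glutathione S-transferase gene, was at 1.77 ± 0.740 RPKM in hair cells, against 8.29 ± 0.387 RPKM in nsSCs (SD, n = 3 each). Beside cabp5b, asphd1 was at 6.34 ± 0.396 RPKM in hair cells, against 0.410 ± 0.151 RPKM in nsSCs, and pitpnbl at 12.2 ± 1.36 RPKM in hair cells, against 40.6 ± 3.17 RPKM in nsSCs (SD, n = 3 each). Each of these CaBP genes thus had a neighbour called in either direction.

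In the same annotation slc43a3a overlaps cabp2a. It was listed at 0 in every hair cell sample and had 4.15, 3.82 and 3.03 RPKM in replicates 1, 2 and 3 of the nsSCs, the cell type in which the single value of cabp2a above 0 was found. Whether reads of slc43a3a were counted for cabp2a was not tested.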
